A study of Mus musculus with 6 samples.

Results

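The bone morphogenetic protein (BMP) and transforming growth factor beta (TGF-beta) genes followed here were 42 genes chosen by name: 12 ligands or ligand-processing genes, 6 antagonists, 10 receptors, 8 Smads and 6 Id and Msx target genes. Each gene was read from the probe sets annotated to its symbol and to no other, and its value was their mean. All 42 were on the array, with 73 of 22626 probe sets, among 12393 genes named in all. The samples were mouse embryos of 9.5 days post coitum, all labelled as strain c57bl/6, trimmed to the stretch from the otic placode to the youngest somite, without heart and endoderm (the somite-level tissues of the labels). The 3 wild-type pools carried Dll3+/+ and the 3 mutant pools were Dll3-tm1Rbe/tm1Rbe, also written Dll3neo/neo, homozygous for a targeted germline allele. Dll3, a divergent member of the Notch ligands, is required for regular segmentation of the somites, and the study asked which transcripts of this tissue are disrupted by its mutation. Each sample was a pool of embryos and was hybridised to 1 Affymetrix MOE430A array, with the pools described as biological replicates. The number of embryos per pool was not given in the sources used here.

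BMP and TGF-beta ligands are secreted dimers that bring type I and type II receptor kinases together. The type I receptor phosphorylates a receptor Smad (Smad1, Smad5 and Smad9 for BMPs, Smad2 and Smad3 for TGF-beta and activins), which enters the nucleus with Smad4, while Smad6 and Smad7 inhibit the pathway. Around the somites, Bmp4 from the lateral plate and the dorsal midline ectoderm and the antagonist Noggin set the mediolateral and dorsoventral pattern, and the Id genes and Msx genes are widely used readouts of BMP signalling.

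No level could be read from the deposited values. They were ratios to a reference set for every probe set separately, close to its median over the 6 pools, so a gene was compared between pools and never with another gene, and absence of a transcript could not be seen. The values below are log2 of these ratios, and a difference is the mutant mean minus the wild-type mean. With 3 arrays per genotype, precision is limited by their number, and the median SE of a difference was 0.0867 over the members and 0.0869 over all genes. The pools did not part by genotype on their first principal component (42.8% of the variance over all genes): wild-type pools 1 and 2 and mutant pool 1 had scores from -10.3 to -5.96, and the other 3 pools from 3.99 to 11.2. On the second component (17.5%) they did: wild-type scores ran from -8.43 to 0.41 and mutant scores from 3.08 to 5.86. The sex score, the Xist level minus the mean of 3 Y-linked genes, ran from -1.73 to -0.08 in wild-type and from 0.04 to 0.81 in mutant pools, without overlap. Dll3 differed by -0.021 (SE 0.0733), and where its probe set lies relative to the targeted change was not given in the sources used, so this value does not check the labels.

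No BMP or TGF-beta gene passed the test between the genotypes. In limma's fit over 12393 genes, 0 of 42 members and 0% of all genes had a Benjamini-Hochberg adjusted p under 0.05, and the adjusted p of every member was 0.9997. At an unadjusted p under 0.05 there were 2 of 42 members (4.76%), Smad9 and Tgfb3, against 2.67% of all genes. Both were lower in the mutant pools, the direction of 1.36% of all genes at that p, while no member was higher, against 1.31%. The mutant mean was lower for 27 members (64.3%) and higher for 15, and it was lower for 48.1% of all genes. The median difference was -0.024 over the members and 0.0035 over all genes. The member median was -0.0055 without wild-type replicate 1, the pool whose removal brought it nearest to 0, and 23 members were then lower. With the sex score as a covariate it was -0.061 and 31 members were lower. The spread between pools of one genotype had a median SD of 0.105 over members and 0.106 over all genes.

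The intervals of the differences were narrow on the scale of the deposited ratios. For all 42 members the 95% interval, unadjusted for the number of genes, lay within 1.5-fold either way, as it did for 99.5% of all genes. The lowest bound was that of Smad9, -0.47 or 0.724-fold, and the highest that of Bmp6, 0.39 or 1.31-fold. Whether a ratio carries the full fold of the transcript cannot be read from these values. In 5 of 42 members (11.9%) the 3 mutant pools lay wholly on one side of the 3 wild-type pools, against 7.46% of all genes. The 3 lower ones were Smad9, Smad5 and Msx1, against 3.49% of all genes, and the 2 higher ones were Smad3 and Id1, against 3.98%. These were read from gene means. No single probe set of Smad5 or Smad3 parted the genotypes, and for Msx1 only that at -0.19 did.

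**Figure D1:**
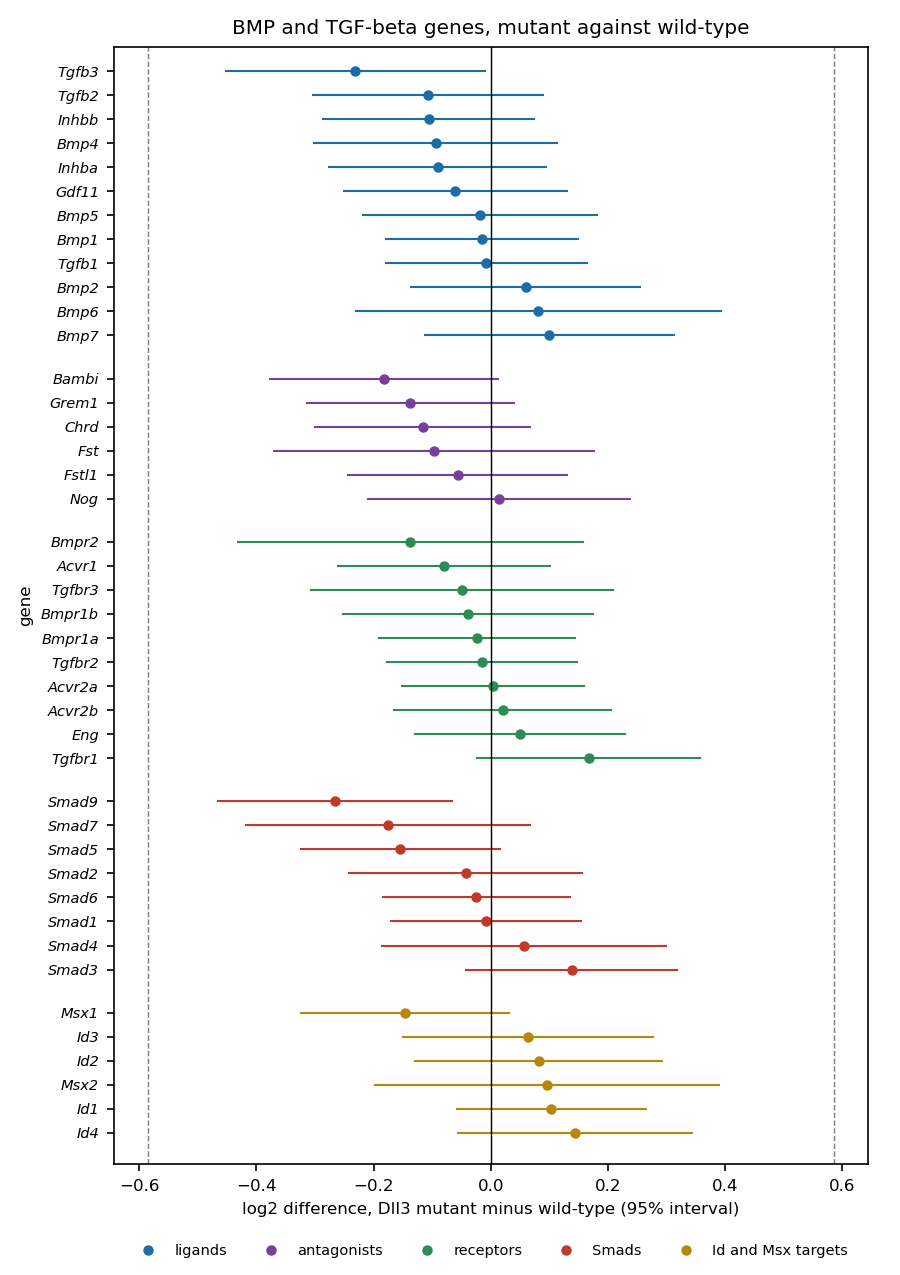
Log2 difference of each of the 42 genes, Dll3 mutant minus wild-type (x axis; points, with limma's unadjusted 95% intervals as lines, n = 3 pools per genotype), by gene group. All intervals lie between the dashed lines that mark a 1.5-fold change, and those of Smad9 and Tgfb3 are the only ones that leave out 0.

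Of the 12 genes in the ligand group, 9 had a lower and 3 a higher mutant mean, with a median difference of -0.039, which was 0.013 without wild-type replicate 1. None passed the test, so no ligand was shown to differ. Tgfb3, one of the 3 TGF-beta isoforms, had the smallest p of the group: its log2 level was 0.091, 0.23 and -0.038 in wild-type pools 1 to 3 and -0.21, 0.037 and -0.24 in mutant pools 1 to 3. Mutant pools 1 and 3 were the lowest, while mutant pool 2 lay among the wild-type pools, so the groups overlapped. The difference was -0.23 (SE 0.0998, 95% interval -0.45 to -0.0092), at an unadjusted limma p of 0.0427 and an adjusted p of 0.9997. The unadjusted p was not under 0.05 when wild-type replicate 1, wild-type replicate 2, Dll3 mutant replicate 1 or Dll3 mutant replicate 3 was left out, which is 4 of the 6 pools. It was also not under 0.05 without both pools numbered 3 or with the sex score in the fit. Tgfb3 rests on 1 probe set, so taking the most variable probe set per gene left its difference as it was. Its unadjusted limma p was not under 0.05 in that fit either. Inhbb, the beta B subunit of activin and inhibin, was at 0.070, 0.16 and -0.041 in wild-type and -0.097, -0.054 and 0.028 in mutant pools. Wild-type pool 3 lay among the mutant pools, and the difference was -0.11 (SE 0.0808). Tgfb2 was at 0.025, -0.022 and 0.19 in wild-type and -0.018, -0.16 and 0.053 in mutant pools, with a difference of -0.11 (SE 0.0883), which was -0.0097 with the sex score.

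The 3 probe sets of Tgfb2 did not go the same way: 2 gave differences of -0.24 and -0.23, and the third gave 0.15. In the third probe set, wild-type pool 2 was lowest, at -0.37, whereas the others placed that pool at 0.14 and 0.16. Inhba, the beta A subunit, was at -0.091 (SE 0.0834). Bmp4, a BMP of the lateral plate and the dorsal midline, was at -0.094 (SE 0.0931), and its mutant levels of 0.033, -0.16 and -0.034 lay within or below the wild-type ones of 0.17, 0.064 and -0.12. Bmp7, a BMP of the surface ectoderm and roof plate, was at 0.10 (SE 0.0957), with probe sets at -0.066, 0.15 and 0.21. Gdf11, which acts on axial identity, was at -0.060 (SE 0.0858) and Bmp2, a close relative of Bmp4, at 0.060 (SE 0.0877). These single genes did not part the genotypes beyond the spread of their pools.

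Bmp6 was the member with the widest spread over the 6 pools, from -0.45 in wild-type pool 3 to 0.14 in wild-type pool 2. Both extremes were in the same genotype, and its difference was 0.081 (SE 0.14). Tgfb1 (-0.0074), Bmp1 (-0.015) and Bmp5 (-0.018) had the differences nearest to 0 in the group, with SEs from 0.0738 to 0.0896. Bmp1 is not a TGF-beta family ligand but a metalloprotease that cleaves procollagens and the antagonist Chordin. Its 3 probe sets gave -0.11, -0.013 and 0.082, and the 2 of Bmp5 gave -0.070 and 0.034.

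Of 6 antagonists, 5 had a lower mutant mean, and the median difference was -0.11, the lowest of the 5 gene groups. No member passed, none had an unadjusted p under 0.05, and the groups overlapped in each. The median stayed between -0.16 and -0.066 when any 1 pool was left out, and was -0.065 with the sex score. Bambi, a membrane pseudoreceptor without a kinase domain, was at 0.24, -0.025 and 0.16 in wild-type and 0.024, -0.085 and -0.11 in mutant pools. Wild-type pools 1 and 3 were above all mutant pools and wild-type pool 2 was among them. The means were 0.12 ± 0.134 for the wild-type pools and -0.058 ± 0.0729 for the mutant pools (SD, n = 3 each), a difference of -0.18 (SE 0.0876, 95% interval -0.38 to 0.012).

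Grem1, a secreted BMP antagonist, was at -0.0087, 0.15 and 0.084 in wild-type and -0.043, -0.15 and 0.0086 in mutant pools, a difference of -0.14 (SE 0.0797), which was -0.019 with the sex score. Wild-type pools 2 and 3 were highest and mutant pool 2 lowest. Chrd, which encodes Chordin, was at 0.14, 0.092 and -0.041 in wild-type and -0.060, -0.14 and 0.040 in mutant pools, a difference of -0.12 (SE 0.0826). Here wild-type pools 1 and 2 were highest, and wild-type pool 3 lay among the mutant pools. Fst, which encodes the activin antagonist follistatin, was at -0.097 (SE 0.123) with a spread of 0.52 over the pools, and Fstl1, a secreted follistatin-related glycoprotein, at -0.057 (SE 0.0843). Nog, which encodes Noggin, the antagonist best known from the somite and dorsal midline, was at 0.015 (SE 0.101). Mutant pool 2 was the lowest of all pools for Grem1, Chrd and Fst, and the mean level of the group in that pool, -0.12, was the lowest of the 6.

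**Figure D2:**
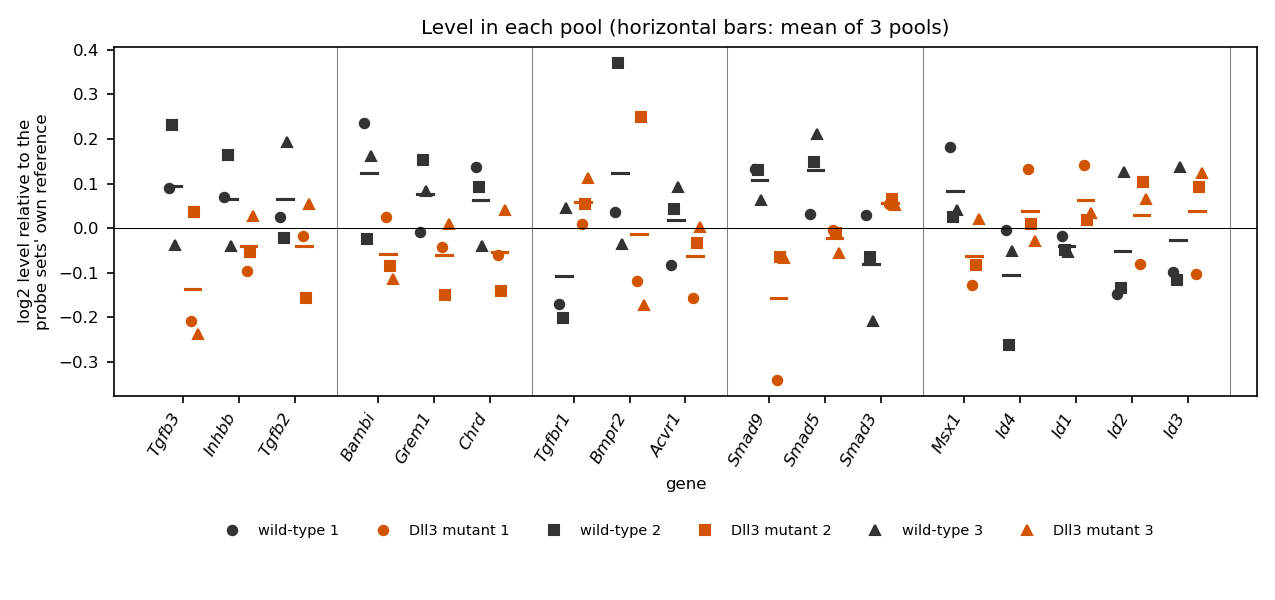
Log2 level in each pool (y axis) of the 3 genes of smallest p in each group and of the 4 Id genes; dark symbols are wild-type and orange symbols mutant pools 1 (circle), 2 (square) and 3 (triangle), and short bars are the means of 3 pools. The genotypes part without overlap only for Smad9, Smad5, Smad3, Msx1 and Id1 among the genes drawn.

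The 10 receptors and coreceptors were split 6 lower and 4 higher, with a median difference of -0.019 (0.0023 without wild-type replicate 1), and none had an unadjusted p under 0.05 or groups that did not overlap. Tgfbr1, the type I receptor of TGF-beta, had the smallest p among the receptors and the largest positive difference among the 42 genes. It was at -0.17, -0.20 and 0.045 in wild-type and 0.0087, 0.055 and 0.11 in mutant pools, and the difference was 0.17 (SE 0.0857, 95% interval -0.023 to 0.36). Wild-type pools 1 and 2 were lowest, and wild-type pool 3 lay among the mutant pools. Its 3 probe sets were all positive, at 0.043, 0.12 and 0.34.

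Bmpr2, the type II BMP receptor, was at 0.036, 0.37 and -0.036 in wild-type and -0.12, 0.25 and -0.17 in mutant pools, a difference of -0.14 (SE 0.133). Both pools numbered 2 were the highest of their genotype, and the spread within each genotype was wider than the difference between them. The difference was -0.013 without wild-type replicate 2 and -0.27 without Dll3 mutant replicate 2. Acvr1, a type I receptor, was at -0.084, 0.043 and 0.093 in wild-type and -0.16, -0.034 and 0.0031 in mutant pools, a difference of -0.080 (SE 0.0815), which was -0.0018 with the sex score. The 3 probe sets of Acvr1 were all negative, at -0.15, -0.055 and -0.031. Tgfbr3, the coreceptor betaglycan, was at -0.049 (SE 0.116), with wild-type pools from -0.23 to 0.29 and mutant pools from -0.020 to 0.0058. Its spread lay almost wholly among the wild-type pools. The type I BMP receptors Bmpr1a (-0.023) and Bmpr1b (-0.039), the activin type II receptors Acvr2a (0.0043) and Acvr2b (0.021), the type II receptor Tgfbr2 (-0.015) and the endothelial coreceptor Eng (0.050) had differences with SEs from 0.0699 to 0.0963. The 5 probe sets of Bmpr1a gave -0.16, -0.052, -0.020, 0.014 and 0.10. Those of Tgfbr2 gave -0.13, -0.061 and 0.15, those of Acvr2a were at -0.089 and 0.097, and those of Eng at -0.016 and 0.12.

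Of 8 Smad genes, 6 had a lower and 2 a higher mutant mean (median -0.034, and -0.0092 without wild-type replicate 3), and none passed the test. Smad9, a BMP Smad, had the smallest p of the 42 genes. Its log2 level was 0.13, 0.13 and 0.062 in wild-type and -0.34, -0.065 and -0.066 in mutant pools. The genotypes did not overlap, and mutant pool 1 was far the lowest. The means were 0.11 ± 0.0405 for the wild-type pools and -0.16 ± 0.158 for the mutant pools (SD, n = 3 each), and the difference was -0.27 (SE 0.0901, 95% interval -0.47 to -0.066), or 0.832-fold. Its unadjusted limma p was 0.0141 and its adjusted p 0.9997, with a range of 0.462 to 1 over the alternatives. Without Dll3 mutant replicate 1 the difference was -0.17, and Smad9 was then not among the members with an unadjusted p under 0.05. It rests on 1 probe set.

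Smad5 was at 0.033, 0.15 and 0.21 in wild-type and -0.0036, -0.010 and -0.055 in mutant pools. The wild-type pools were the 3 highest, by a narrow gap between wild-type pool 1 and mutant pool 1, and the difference was -0.15 (SE 0.0763, 95% interval -0.32 to 0.015), which was -0.011 with the sex score. Both probe sets of Smad5 were negative, at -0.18 and -0.13, and in each alone the genotypes overlapped. Smad1, the third BMP Smad, was at -0.0087 (SE 0.0729), with probe sets at -0.093 and 0.076. So the 3 BMP Smads were each at a negative mean difference, of which Smad1 was within 0.01 of 0.

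Smad3, a TGF-beta and activin Smad, was at 0.030, -0.064 and -0.21 in wild-type and 0.055, 0.065 and 0.052 in mutant pools. In the mean of its 2 probe sets the mutant pools were all above the wild-type pools and close to each other. In each probe set alone the genotypes overlapped, with mutant SDs of 0.065 and 0.075. The difference of Smad3 was 0.14 (SE 0.0807), with probe sets at 0.12 and 0.16. With the sex score as a covariate it was -0.021. Smad2, its partner in the same branch, was at -0.043 (SE 0.0896). Smad4, the shared partner of the receptor Smads, was at 0.057 (SE 0.109), with its 3 probe sets at -0.061, 0.088 and 0.15. Of the inhibitory Smads, Smad7 was at -0.17 (SE 0.109), with mutant pool 1 lowest at -0.35 and mutant pool 3 highest at 0.083, and Smad6 was at -0.025 (SE 0.0716). Mutant pool 1 was the lowest of the 6 pools for the mean of the Smad group (-0.13).

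Of the 6 Id and Msx target genes, 5 had a higher mutant mean, with a median difference of 0.089, which was 0.053 with wild-type replicate 2 left out and 0.12 with wild-type replicate 3 left out. None passed the test and none had an unadjusted p under 0.05. The Id genes encode helix-loop-helix proteins without a DNA-binding region that hold back differentiation. Id1 was at -0.017, -0.048 and -0.053 in wild-type and 0.14, 0.017 and 0.033 in mutant pools, without overlap. The gap between the genotypes was small and the difference was 0.10 (SE 0.0727, 95% interval -0.058 to 0.26). Id4 was at -0.0039, -0.26 and -0.052 in wild-type and 0.13, 0.0086 and -0.030 in mutant pools, a difference of 0.14 (SE 0.0898, 95% interval -0.056 to 0.34). Wild-type pool 2 was the lowest, and 1 of the 3 probe sets of Id4 carried most of the difference, with values of 0.057, 0.061 and 0.31.

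Id2 was at -0.15, -0.13 and 0.13 in wild-type and -0.080, 0.10 and 0.065 in mutant pools, and Id3 at -0.099, -0.12 and 0.14 and -0.10, 0.092 and 0.12. For both genes wild-type pools 1 and 2 and mutant pool 1 were low and the other 3 pools were high, the same division of pools as on the first principal component. The differences were 0.082 (SE 0.0947) for Id2, with probe sets at 0.016, 0.056 and 0.17, and 0.064 (SE 0.0961) for Id3. With 1 pool left out they ran from 0.034 to 0.17 for Id2 (lowest without wild-type replicate 1, highest without wild-type replicate 3) and from 0.018 to 0.15 for Id3 (lowest without wild-type replicate 2, highest without wild-type replicate 3). The differences of all 4 Id genes were positive in each of the 17 alternatives. Of these, the replicate block, variance trend and robust fit cannot change a difference. For Id1 and Id3, which rest on 1 probe set each, the choices of probe sets cannot change it either. The mean level of the Id genes was -0.067, -0.14 and 0.040 in wild-type and 0.023, 0.055 and 0.048 in mutant pools, so wild-type pool 3 lay among the mutant pools.

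Promoter windows of 3 of the 4 Id genes (Id2, Id3 and Id4, not Id1) are shown because the Id genes are BMP Smad targets whose differences all had a positive sign, and that of Smad9 because it had the smallest p of the members. BMP Smads bind GC-rich elements that hold GGCGCC, and Smad3 and Smad4 bind the letters GTCT, so both were searched on both strands in the 250 bases before each gene start of RefSeq (GRCm38.p6). By symbol, 35 windows were matched to 30 of the 42 members. Capitals mark GGCGCC and GTCT or its reverse complement AGAC, and no matches overlapped in these windows.
Id2: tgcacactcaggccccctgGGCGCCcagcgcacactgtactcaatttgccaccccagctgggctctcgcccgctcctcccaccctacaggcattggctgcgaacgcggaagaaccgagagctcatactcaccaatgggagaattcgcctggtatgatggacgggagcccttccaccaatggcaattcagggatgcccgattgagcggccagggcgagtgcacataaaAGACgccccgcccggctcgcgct
Id3: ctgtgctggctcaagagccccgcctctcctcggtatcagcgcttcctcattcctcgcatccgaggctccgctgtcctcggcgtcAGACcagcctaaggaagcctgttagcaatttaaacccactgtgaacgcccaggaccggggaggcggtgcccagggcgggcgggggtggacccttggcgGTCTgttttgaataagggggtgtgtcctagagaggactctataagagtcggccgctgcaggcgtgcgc
Id4: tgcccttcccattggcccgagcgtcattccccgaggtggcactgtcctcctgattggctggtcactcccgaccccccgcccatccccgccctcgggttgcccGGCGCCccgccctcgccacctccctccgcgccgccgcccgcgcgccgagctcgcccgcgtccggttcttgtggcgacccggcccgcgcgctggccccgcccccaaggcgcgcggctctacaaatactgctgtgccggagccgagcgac
Smad9: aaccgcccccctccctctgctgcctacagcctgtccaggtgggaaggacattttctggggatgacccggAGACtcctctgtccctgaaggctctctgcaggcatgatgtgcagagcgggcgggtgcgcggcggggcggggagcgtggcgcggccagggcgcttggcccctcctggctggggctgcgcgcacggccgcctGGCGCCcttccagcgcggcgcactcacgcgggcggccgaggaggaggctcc
The Id2 window was chr12:25096093-25096342 on the minus strand, that of Id3 chr4:136143572-136143821 on the plus strand, that of Id4 chr13:48260866-48261115 on the plus strand and that of Smad9 chr3:54755332-54755581 on the plus strand. GGCGCC began 231 bases before the start of Id2, 148 before that of Id4 and 51 before that of Smad9, and was not among the letters of the Id3 window. The windows of the targets Msx1 and Msx2, searched but not shown, did not hold it either. Those of Tgfbr1, also not shown, held 1 and 0 matches. GGCGCC lay in 9 of 35 member windows (25.7%) and in 9.59% of all 32851 windows, whose median GC content was 52.4% against 66.8% in the member windows. GTCT, a short motif, lay in 80% of member windows and in 82.9% of all. The palindrome GTCTAGAC was in 0 member windows and in 0.167% of all windows. A match is a description of the sequence and says nothing about binding in these embryos.

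The Msx homeobox genes, markers of the dorsal neural tube and of BMP-exposed mesenchyme, had opposite signs. Msx1 was at 0.18, 0.026 and 0.040 in wild-type and -0.13, -0.084 and 0.021 in mutant pools. The wild-type pools were all above the mutant pools, but only just so for wild-type pool 2 and mutant pool 3, and the difference was -0.15 (SE 0.0799, 95% interval -0.32 to 0.031), with probe sets at -0.19 and -0.10. With the sex score it was -0.31. In the Msx1 probe set at -0.10 the genotypes overlapped. Msx2 was at 0.096 (SE 0.132) and spread over 0.54. It was highest in both pools numbered 1, at 0.27 in wild-type and 0.40 in mutant.

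**Figure D3:**
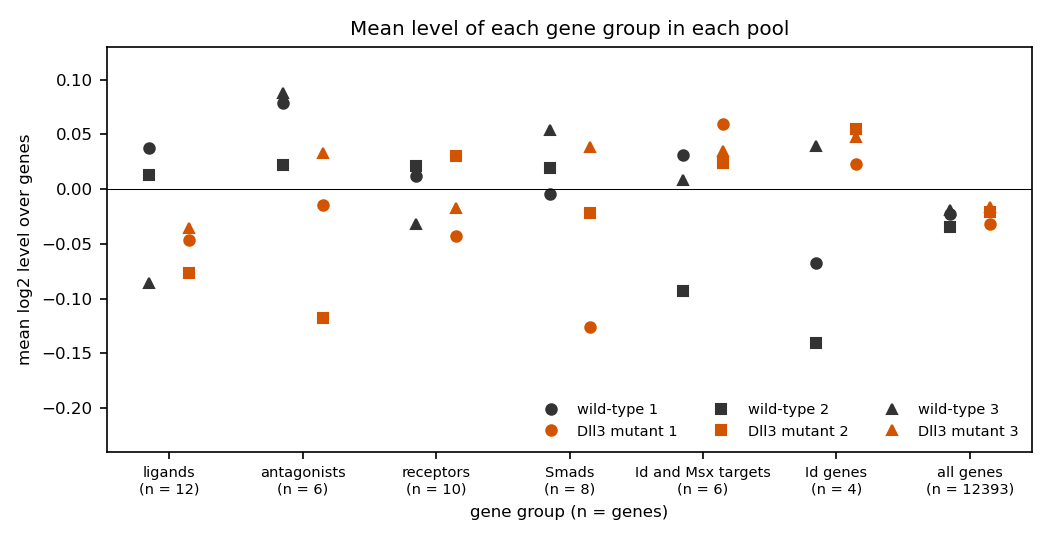
Mean log2 level over the genes of each group (y axis; n = genes on the x axis) in wild-type (dark) and Dll3 mutant (orange) pools 1 to 3. The genotypes overlap in every group drawn. Mutant pool 2 is lowest for the antagonists (-0.12), mutant pool 1 for the Smads (-0.13), and wild-type pool 2 for the Id genes (-0.14).

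The mean level of a group showed how its members moved from pool to pool. The ligand mean was 0.037, 0.013 and -0.086 in wild-type and -0.046, -0.077 and -0.035 in mutant pools, and the antagonist mean 0.079, 0.023 and 0.088 and -0.014, -0.12 and 0.033. The Smad mean was -0.0048, 0.019 and 0.054 and -0.13, -0.022 and 0.038. In each of the 5 groups the genotypes overlapped. Different pools were low in different groups: wild-type pool 3 for the ligands, mutant pool 2 for the antagonists and mutant pool 1 for the Smads and receptors. Wild-type pool 3 was at once the lowest pool for 11 members and the highest for 11 others (26.2% each), against 18.9% and 21.4% of all genes. Mutant pool 2 was the highest for 2 members (4.76%), against 13.8% of all genes.

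Probe sets of one gene bear on how far each value can be read. Of the 19 members with 2 or more probe sets, the signs of the differences were the same in 8 and differed in 11, and the other 23 members rest on 1 probe set. The 8 were Acvr1, Id2, Id4, Inhbb, Msx1, Smad3, Smad5 and Tgfbr1. Among all 73 member probe sets, 0 passed the adjusted threshold in limma's fit over 22626 probe sets (0% of all), and 5 (6.85%) had an unadjusted p under 0.05, against 2.63% of all. The 3 lower ones were 2 of Tgfb2 and that of Smad9, against 1.25% of all, and the 2 higher ones were 1 each of Id4 and Tgfbr1, against 1.38%. Fstl1 had probe sets at -0.14 and 0.031. The reference of 2 member probe sets, the single one of Bmp2 and 1 of Tgfbr2, was not their median, which was below 1 (0.8 and 0.917).

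**Figure D4:**
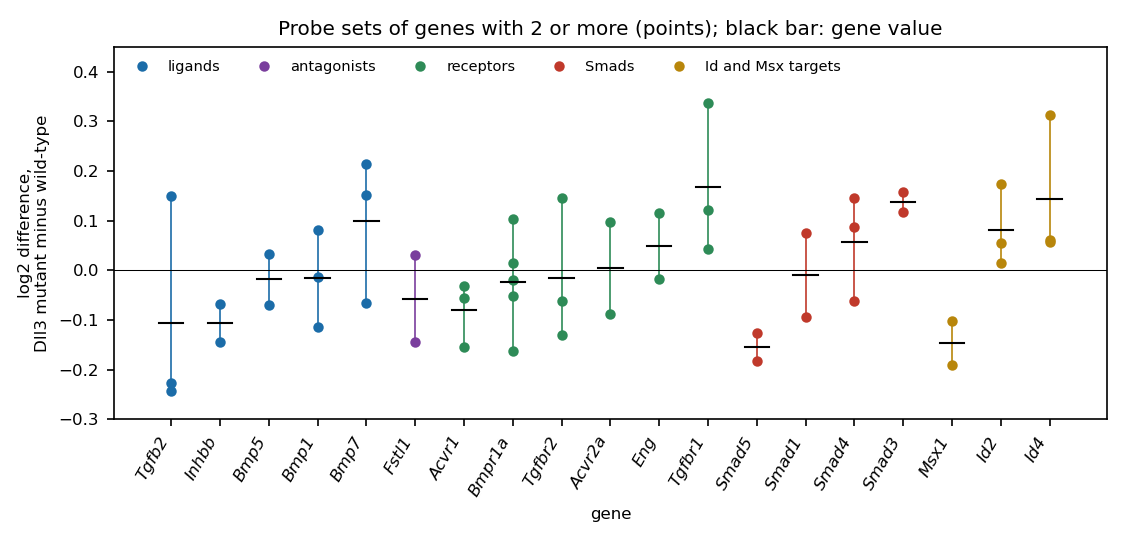
Log2 difference, Dll3 mutant minus wild-type (y axis), of each probe set (points) of the 19 members with 2 or more; coloured lines join the lowest and highest probe set of a gene, and black bars mark the gene value. In 11 genes the points lie on both sides of 0; in Tgfb2 they run from -0.24 to 0.15.

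Other genes of the same pathways, 83 listed by role, were read beside the members. Of the 66 on the array, 36 had a higher and 30 a lower mutant mean, with a median difference of 0.010, and 0 passed limma's adjusted threshold. Unadjusted p-values under 0.05 were found for 1 lower and 1 higher gene, against 1.36% and 1.31% of all genes. The lower gene was Bmp8a, a BMP ligand, at -0.19 (SE 0.0826), and the higher one Zfp423, which encodes a zinc finger partner of BMP Smads, at 0.25 (SE 0.0997). Both were among the 4 of the 66 genes whose groups did not overlap (3 lower and 1 higher), against 7.46% of all genes. Of the 12 other ligands 8 were lower (median -0.052), with Gdf5 at -0.17 (SE 0.0932) and, on the positive side, Bmp8b at 0.13 (SE 0.099). Of 20 other extracellular regulators 9 were lower (median 0.036), with the chordin-cleaving protease gene Tll1 at -0.12 (SE 0.0728) and Ltbp3, a latent TGF-beta binding protein, at 0.10 (SE 0.0805). Of 5 other receptors and coreceptors 4 were lower (median -0.051), with the type I receptor Acvr1c at -0.17 (SE 0.0925). Of 15 other intracellular regulators 5 were lower (median 0.024), with the corepressor Tgif2 at -0.096 (SE 0.0866). Of 14 other target genes 4 were lower (median 0.029), with Tgfbi, which is induced by TGF-beta, at 0.11 (SE 0.0843) and Klf10 at -0.086 (SE 0.113).

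The tissue held several cell types that use these genes, and in pooled tissue fewer cells of a type and less RNA per cell cannot be told apart. The somite markers were lower for 8 of 12 genes, with list means of -0.015 to 0.12 in wild-type and -0.19 to 0.065 in mutant pools. Uncx, a homeobox gene of caudal somite compartments, had the lowest mutant mean relative to wild-type among them (0.501-fold). Roof plate and dorsal neural tube markers, a site of Bmp7, Msx1, Msx2 and Id expression, were higher for 6 of 9 genes (-0.14 to 0.027 in wild-type and 0.0036 to 0.092 in mutant pools). Surface ectoderm markers were higher for 8 of 9 (-0.19 to 0.12 in wild-type and -0.061 to 0.14 in mutant pools), and wild-type pools 1 and 2 were lowest. Endothelial markers, beside which Eng and Smad6 are read, were higher for 8 of 10 (-0.048 to -0.018 in wild-type and -0.024 to 0.089 in mutant pools). Primitive erythroid markers were higher for 7 of 7, and their list means did not overlap (-0.17 to -0.020 in wild-type and 0.042 to 0.32 in mutant pools). Of these markers 5 had groups that did not overlap, against 3.98% of all genes in that direction. In the other lists this held for 2 endothelial, 1 heart muscle and 1 endoderm and yolk sac marker (higher) and 1 somite marker (lower). Lateral plate markers, beside which Bmp4 is read, were higher for 6 of 10 (-0.11 to 0.11 in wild-type and -0.046 to 0.059 in mutant pools), presomitic and tail bud markers for 2 of 9, neural crest markers for 4 of 7, heart muscle markers for 5 of 8 (without overlap of their list means, -0.10 to -0.072 in wild-type and -0.038 to -0.0071 in mutant pools), intermediate mesoderm markers for 5 of 6 and endoderm and yolk sac markers for 4 of 9. A ratio has no zero, so no marker could be called absent, and the part of any of these cell types in the values of the BMP and TGF-beta genes was not tested.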

How the data were processed

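The authors deposited linear ratios for 22690 probe sets in 6 pools, each relative to its own probe set's reference level: 93.4% of rows had a median of 1 (within 0.0015), 1497 a lower one and 0 a higher one. The submitters' processing notes name RMA and MAS5, with neither version nor role, and the scaling between arrays was not given in the sources used. Log2 of the ratios was taken with no pseudocount. Without the 64 controls, 20380 of 22626 probe sets named 1 gene in the platform annotation (20364 matched RefSeq by gene identifier). Probe sets with several genes (691) or none (1555) named no gene.

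Gene means and probe sets were each fitted with limma 3.58.1 (R 4.3.3; lmFit, eBayes, no term but genotype; two-sided; adjusted p under 0.05 by Benjamini-Hochberg over all genes or probe sets). Lists were described by counts and medians, with no set test. Values in every pool were given for the 3 members of smallest p in each group and the 4 Id genes; the wide spread of Bmp6, Tgfbr3 and Msx2 and the pools given for Bmp4 and Smad7 were picked out after their values were seen. Of the other pathway genes at most 2 of smallest p per direction and list were named. Members, groups and lists were chosen with earlier results of these data known. The fit was also tried on simulated data, with independent genes whose spread came from the main fit. Shifts shared by many genes of a pool were not simulated. The alternatives were a replicate block, a variance trend, a robust fit that also had a trend, weights per array, quantile or median scaling, pools left out (each in turn, or both numbered 3), the sex score as a covariate, other thresholds, and other choices of probe sets. Figures were drawn with matplotlib 3.10.9.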

Additional observations from a re-analysis of the deposited data

How the results depend on the processing

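No member passed the adjusted threshold in any of the 17 alternatives, and the smallest adjusted p was 0.462 (limma with array weights). The replicate block, variance trend and robust fit cannot change a difference, so signs kept there were fixed in advance. For members that rest on 1 probe set, such as Id1, Id3, Tgfb3 and Smad9, this also holds for the choices of probe sets. Of the 17 members given by pool under the naming rule, 15 kept their sign in every alternative. Tgfb2 was at 0.15 by its most variable probe set, and Smad3 at -0.021 with the sex score. The sex score also brought others near 0 without a change of sign (Tgfb2 -0.0097, Acvr1 -0.0018, Smad5 -0.011, Grem1 -0.019) and moved Msx1 to -0.31 and Smad9 to -0.42; the score did not overlap between the genotypes. Over all genes the count past the adjusted threshold in limma was 0 (331 at an unadjusted p under 0.05). It was 1 with the replicate block, a variance trend, a robust fit with trend or array weights (Uncx in each), 0 at an adjusted p under 0.1, and 0 to 1 with a pool left out (Xist without wild-type replicate 1). The trend was one of variance on the mean log2 ratio, which holds no expression level. Over probe sets the count was 0 (595 unadjusted), 1 with the replicate block or array weights, 2 with the robust fit with trend, and 0 to 1 with a pool left out. With a pool left out the median difference was -0.034 to -0.0055 for the members, -0.074 to 0.013 for ligands, -0.16 to -0.066 for antagonists, -0.026 to 0.0023 for receptors, -0.072 to -0.0092 for Smads and 0.053 to 0.12 for targets. The member median was -0.060 without both pools numbered 3 and -0.061 with the sex score, which also gave -0.12 for ligands, -0.065 for antagonists, -0.049 for receptors, -0.026 for Smads and 0.096 for targets. The cause of these shifts was not tested, beyond fewer pools where some are left out. In the labels, same-numbered pools shared only a number. Over all genes the deviations of pools 1, 2 and 3 from their group means correlated at 0.36, -0.038 and 0.40. The values for pools 1 and 3 were the highest of all pairs of a wild-type and a mutant pool. Wild-type pool 2 correlated best with mutant pool 1 (0.23). With the replicate block 4 members had an unadjusted p under 0.05 against 2 without it. Over all genes the share was 4.98% with the block and 2.67% without it. Ratios keep no signal over background, so a filter on dim probe sets could not be applied.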
